A study of Mus musculus with 6 samples.

Results

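Imprinted genes are expressed mainly or wholly from the copy inherited from 1 parent, because the other copy is silenced by methylation or chromatin marks laid down in the germ line of the parents. They lie in clusters, each under an imprinting control region, and many of them set the growth of the fetus, with paternally expressed genes such as Igf2 tending to promote growth and maternally expressed genes such as Cdkn1c and Grb10 tending to restrain it. In fetal germ cells the parental imprints are erased and later laid down anew according to sex, whereas the somatic cells around them keep the imprints they inherited.

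The 38 imprinted genes described here were chosen by name, as known members of mouse imprinted clusters. Of the 38, 35 had at least 1 probe set that the platform annotation assigns to that gene alone, and 31 of these were bright enough to be tested, out of 11874 genes tested in all. Each gene is represented by the brightest of its probe sets. H19 is listed only on a probe set shared with the microRNA gene Mir675 and is therefore given no value, and Zrsr1 and Begain had no probe set of their own in the annotation. By RefSeq gene type, 5 of the 38 are long noncoding RNAs and 33 are protein-coding. The arrays measure the sum of both alleles, so which parental copy a transcript came from was not analysed here.

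The arrays were made from testes of mouse embryos at E13.5, carrying Dmrt1 alleles outcrossed to the strain 129S6/SvEvTac. Dmrt1 encodes a DM domain transcription factor of Sertoli cells and germ cells, and its loss on this background is associated with teratomas. There were 3 Dmrt1 null testis samples, given as Dmrt(-,-) in the titles and as Dmrt(flox/flox) in the genotype entries with no Cre named, and 3 controls, given as wt in the titles and as Dmrt(+/-) in the genotype entries. The labels call the arrays of a group biological replicates. The arrays read RNA of the testis in bulk, so fewer cells of a type and less RNA per cell cannot be told apart. The Dmrt1 probe set gave intensities of 23.8 to 48.4 in the null arrays and 696 to 1030 in the control arrays. Array medians were 14.6 to 14.8, and the number of arrays limits the precision of every value below. The ratio of 3' to 5' Actb signal was 1.91 to 2.75 in the null arrays, highest in null replicate 3, and 1.92 to 2.15 in the controls. Fetal Leydig cell markers, of which 4 of 7 were measured, varied widely within both groups, with summed intensities of 3204 to 12950 in the nulls and 4024 to 10320 in the controls. Germ cell, Sertoli and interstitial markers varied less, with 8 of 11, 10 of 10 and 9 of 10 tested. Summed germ cell intensity was 12939 to 15842 in the nulls and 13302 to 18851 in the controls, and summed interstitial intensity was 30707 to 31729 and 31436 to 34638. The Sertoli sum did not overlap, at 20539 to 22329 in the nulls and 24536 to 26160 in the controls, with Cst9 the only gene of the list called, lower. Cst9 averaged 1063 in the nulls and 3147 in the controls and Aard 4290 and 5773, which together make up about the whole gap between the sums. Of the 10 Sertoli markers 6 were above 0, with a median log2 difference of 0.03, and their median deviations per array overlapped, at -0.06 to 0.0022 in the nulls and -0.03 to 0.03 in the controls. Macrophage markers, tested at 7 of 7 with 0 called, summed to 770 to 821 in the nulls and 950 to 1379 in the controls. Erythroid markers, tested at 4 of 7, summed to 13322 to 17717 in the nulls and 10754 to 18703 in the controls. The part of any of these cell types in the values below was not tested.

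Sequences of the starts of the imprinted genes set the scene for the values that follow. RefSeq promoter windows on GRCm38.p6 were used for 31 of the 38 genes, with 51 windows in all. Each covered 250 bases before and 50 bases after an annotated start. No window was used for Cdkn1c, Dcn, H19, Impact, Kcnq1, Peg10 and Sgce, so the counts below leave these genes out. The windows of the imprinted genes held a median of 14 CG dinucleotides, with a range of 0 to 48, against a median of 7 over all 32817 windows. The hexamer TGCCGC is bound by the imprint-keeping protein ZFP57 when methylated. It was present on either strand in 9 of the 51 windows of imprinted genes (17.6%) and in 11.6% of all windows. This hexamer holds a CG, as does the element named next, and the part of CG content in these shares was not tested. The cyclic AMP response element TGACGTCA, a palindrome, was present in 3 of the 51 windows (5.88%), against 1.79% of all, and those were the windows of Meg3, Peg3 and Usp29. The Peg3 and Usp29 windows overlap and hold the same copy of the element, so that site is counted in both. The letters TATAAA on either strand were in 17.6% and 13.6%. Of the other motifs looked for, the YY1 motif GCCATNTT was in 1.96% of the windows of imprinted genes and 6.04% of all. The letters CCAAT were in 31.4% and 37.4%, so both of these were less frequent in the imprinted windows. Several windows of 1 gene can overlap, and such matches describe the letters and not binding.

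Windows are shown for Meg3, whose transcript had the largest difference among the imprinted genes, for Rian, which lies downstream of Meg3 in the same orientation, and for Peg3, which shares its start region with Usp29. Capitals mark the cyclic AMP response element and, in Meg3, TATAAA matches on both strands that overlap each other. The Meg3 window, chr12:109540746-109541045 on the plus strand, held 13 CG dinucleotides. The Rian window, chr12:109603695-109603994 on the plus strand, held 0 and none of the capitalised motifs. The Peg3 window is chr7:6730370-6730669 on the minus strand and held 13.
Meg3: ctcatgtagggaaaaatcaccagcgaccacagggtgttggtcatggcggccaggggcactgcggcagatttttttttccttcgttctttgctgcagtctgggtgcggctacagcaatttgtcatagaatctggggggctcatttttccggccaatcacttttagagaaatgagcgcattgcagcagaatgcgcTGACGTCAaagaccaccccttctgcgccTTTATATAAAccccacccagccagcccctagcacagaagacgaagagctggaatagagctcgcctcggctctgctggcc
Rian: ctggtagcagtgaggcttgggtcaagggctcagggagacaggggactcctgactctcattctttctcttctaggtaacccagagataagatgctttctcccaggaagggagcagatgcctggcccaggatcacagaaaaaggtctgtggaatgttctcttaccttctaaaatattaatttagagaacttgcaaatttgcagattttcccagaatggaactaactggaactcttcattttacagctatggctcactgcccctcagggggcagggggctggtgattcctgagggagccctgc
Peg3: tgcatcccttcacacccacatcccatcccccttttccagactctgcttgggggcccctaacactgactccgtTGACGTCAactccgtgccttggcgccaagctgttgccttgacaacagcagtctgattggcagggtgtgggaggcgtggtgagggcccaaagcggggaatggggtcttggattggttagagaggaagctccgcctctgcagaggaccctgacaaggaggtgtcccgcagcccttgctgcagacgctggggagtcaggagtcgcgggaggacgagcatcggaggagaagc

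Across the 31 imprinted genes tested, no transcript differed between Dmrt1 null and control testes at an adjusted p under 0.05. The log2 differences of null minus control ran from -0.62 for Peg10 to 0.74 for Meg3, and 26 of the 31 lay within 0.25 of 0. Their median was -0.04, with 12 above 0 and 19 below, against a median of 0.01 over all 22082 probe sets tested. Over all of these, 6 were called, which is 0.0272%. For 19 of the 31 genes (61.3%) the 95% confidence interval of the difference lay within 0.5 of 0 on either side, compared with 51.4% of all probe sets tested. The imprinted genes were measured at higher intensities than most, with a median over genes of mean log2 intensity of 10.33 against 7.90 for all tested. Among the 18 imprinted genes with a mean log2 intensity of at least 10, 15 (83.3%) had such an interval, against 92.2% of the 5068 probe sets that bright.

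By limma at an unadjusted p under 0.05, Peg10, Impact, Igf2r and Dlk1 had lower and Meg3 had higher values in the null. These are 5 of 31, or 16.1%, where 6.04% of all probe sets met the same mark, and their adjusted p was 0.773 each. The 4 with lower values compare with 3.28% of all probe sets and the 1 with a higher value with 2.75%. Leaving out single arrays left 1 to 4 imprinted genes (3.23% to 12.9%) at that mark, and 3.84% to 8.45% of all probe sets. Without control replicate 3 there was 1 gene, without null replicate 2 or null replicate 3 there were 2 each, and without control replicate 1 or control replicate 2 there were 3 each. The share of imprinted genes was below that of all probe sets without null replicate 2 (6.45% against 8.45%) and without control replicate 3 (3.23% against 3.84%). With any other array left out it was above. The 3 null and 3 control values did not overlap for 3 of the 31 imprinted genes (9.68%), Igf2r and Impact lower and Meg3 higher. Of all probe sets tested 12.8% were apart in this way, 6.06% lower and 6.73% higher. Counting every tested probe set of the imprinted genes, 62 in all, 4 (6.45%) were apart lower and 4 (6.45%) higher. These shares are close to those of all probe sets, and the further probe sets named below are among them.

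**Figure D1:**
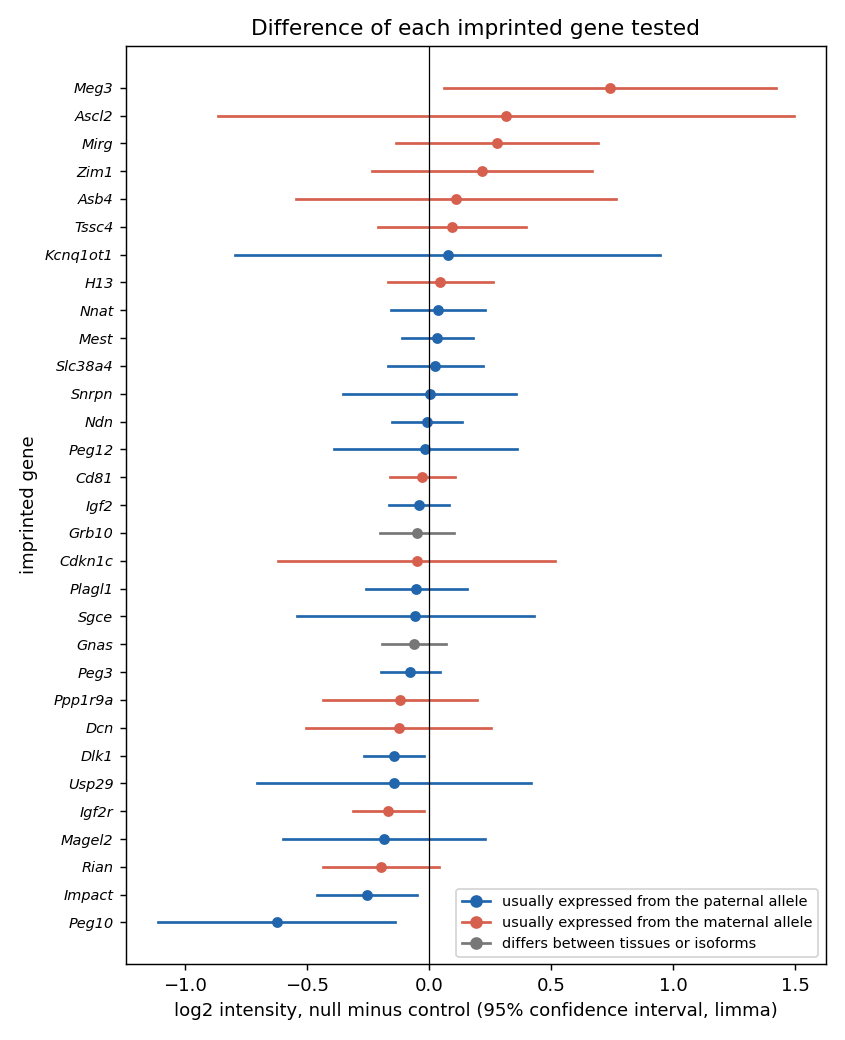
Log2 intensity difference of null minus control testes for each of the 31 imprinted genes tested, with 95% confidence intervals from limma (3 arrays per group). Colours give the allele from which a gene is usually expressed in mouse, which was not measured here. Most points lie close to 0, and the intervals of Peg10, Impact, Igf2r, Dlk1 and Meg3 leave out 0, with none called after adjustment over all probe sets.

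Split by the allele usually expressed, neither set held a called gene. The 16 tested genes of paternal expression had a median log2 difference of -0.05, with 5 above 0 and 11 below, and the 13 of maternal expression had a median of 0.05, with 7 above and 6 below. Grb10 and Gnas, whose allelic expression depends on tissue or isoform, were kept apart, at log2 differences of -0.05 and -0.06. The allele given for every gene is general knowledge. Whether any of them is imprinted in the fetal testis was not analysed here, so the split groups genes by name only.

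Igf2, the fetal insulin-like growth factor, was among the most closely fixed values. Its values were 5220, 5090 and 5600 in null replicates 1, 2 and 3 and 5560, 5240 and 5560 in control replicates 1, 2 and 3. The groups overlapped, and the log2 difference was -0.04 (95% confidence interval -0.16 to 0.08). Igf2r is the receptor that takes up IGF2 for degradation and is expressed from the maternal allele in mouse. It read 2740, 2770 and 3000 in the nulls and 3070, 3270 and 3200 in the controls. All null values lay below all control values, by a small margin. On the log2 scale the null minus control difference was -0.17 ± 0.06 (standard error, n = 3 per group, limma adjusted p = 0.773), a level 1.12-fold lower in the null. A dimmer Igf2r probe set was at -0.51 with overlapping groups.

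Other growth regulators also had overlapping groups and were not called. Grb10, an adaptor that restrains insulin and IGF receptor signalling, had mean intensities of 6773 ± 574 in nulls and 6987 ± 235 in controls (SD, n = 3 each). Plagl1, a zinc finger factor placed at the head of an imprinted gene network, had 9510 ± 879 in nulls and 9860 ± 1023 in controls on its brightest probe set (SD, n = 3 each). Mest, a membrane protein of the hydrolase family found in fetal mesoderm, had 5780 ± 364 in nulls and 5643 ± 312 in controls (SD, n = 3 each). For these 3 genes the 95% intervals of the log2 difference on the brightest probe sets together spanned -0.26 to 0.18. That of Plagl1 is of the x type, which can bind related transcripts. Dimmer Plagl1 probe sets were at -0.19 (95% confidence interval -0.74 to 0.36) and 0.28 (-0.72 to 1.27), both with overlapping groups. Slc38a4, an amino acid transporter, and Dcn, the matrix proteoglycan decorin, had log2 differences of 0.03 and -0.12. Dcn was highest in control replicate 3 at 2730 and null replicate 1 at 2600, and lowest in null replicate 3 at 1750, so its spread lay within the groups.

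The Dlk1-Meg3 cluster held the largest difference. Dlk1, a Notch-family membrane protein of fetal progenitors expressed from the paternal copy, gave 7160, 6510 and 6540 in the nulls and 7090, 7510 and 7680 in the controls. Null replicate 1 lay within the control range and null replicates 2 and 3 below it. Null minus control was -0.14 ± 0.05 in log2 (standard error, n = 3 per group, limma adjusted p = 0.773), and a second Dlk1 probe set had -0.21 with overlapping groups.

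Meg3, the maternally expressed long noncoding RNA of the cluster, gave 473, 412 and 779 in null replicates 1, 2 and 3 on its brightest probe set. The control replicates 1, 2 and 3 gave 220, 376 and 393. All null values lay above all control values, with null replicate 3 far above the other nulls and control replicate 1 far below the other controls. The log2 difference was 0.74 (95% confidence interval 0.06 to 1.42, standard error 0.29, limma adjusted p = 0.773), a level 1.67-fold higher in the null. Without null replicate 3, the array with the highest 3' to 5' Actb ratio, the log2 difference was 0.47, as it was without control replicate 1, and the part of RNA quality in this value was not tested. This probe set is of the x type, which can bind related transcripts.

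In all, 5 Meg3 probe sets were bright enough to be tested, and the other 4 had log2 differences of 0.92, 0.76, 0.36 and 0.18, none called (limma adjusted p of 0.773 to 0.843). Groups did not overlap on those at 0.92 and 0.76. Control replicate 1 was the lowest array on each of the 5 and null replicate 3 the highest. The probe set at 0.92 read 370, 289 and 631 in the nulls and 145, 241 and 287 in the controls. Null replicate 2 and control replicate 3 were nearly level there.

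Rian, a noncoding RNA downstream of Meg3 that carries small nucleolar RNAs, had no probe set with a null group wholly above the controls. Its brightest probe set read 1930, 2090 and 2290 in the nulls and 2130, 2440 and 2670 in the controls, overlapping, with a log2 difference of -0.20 ± 0.10 (standard error, n = 3 per group). A second Rian probe set, picked out after its values were seen, read 122, 128 and 115 in the nulls and 174, 302 and 246 in the controls. All nulls lay below all controls there. In log2, null minus control was -0.95 ± 0.21 (standard error, n = 3 per group, limma unadjusted p = 0.00176, adjusted p = 0.773). The other dimmer Rian probe sets were at 0.12 and 0.04. Mirg, the noncoding RNA further downstream that hosts microRNAs, was near background at 37.6 to 49.3 in the nulls and 30.7 to 39.5 in the controls. No test of the Meg3 against the Rian difference was made.

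**Figure D2:**
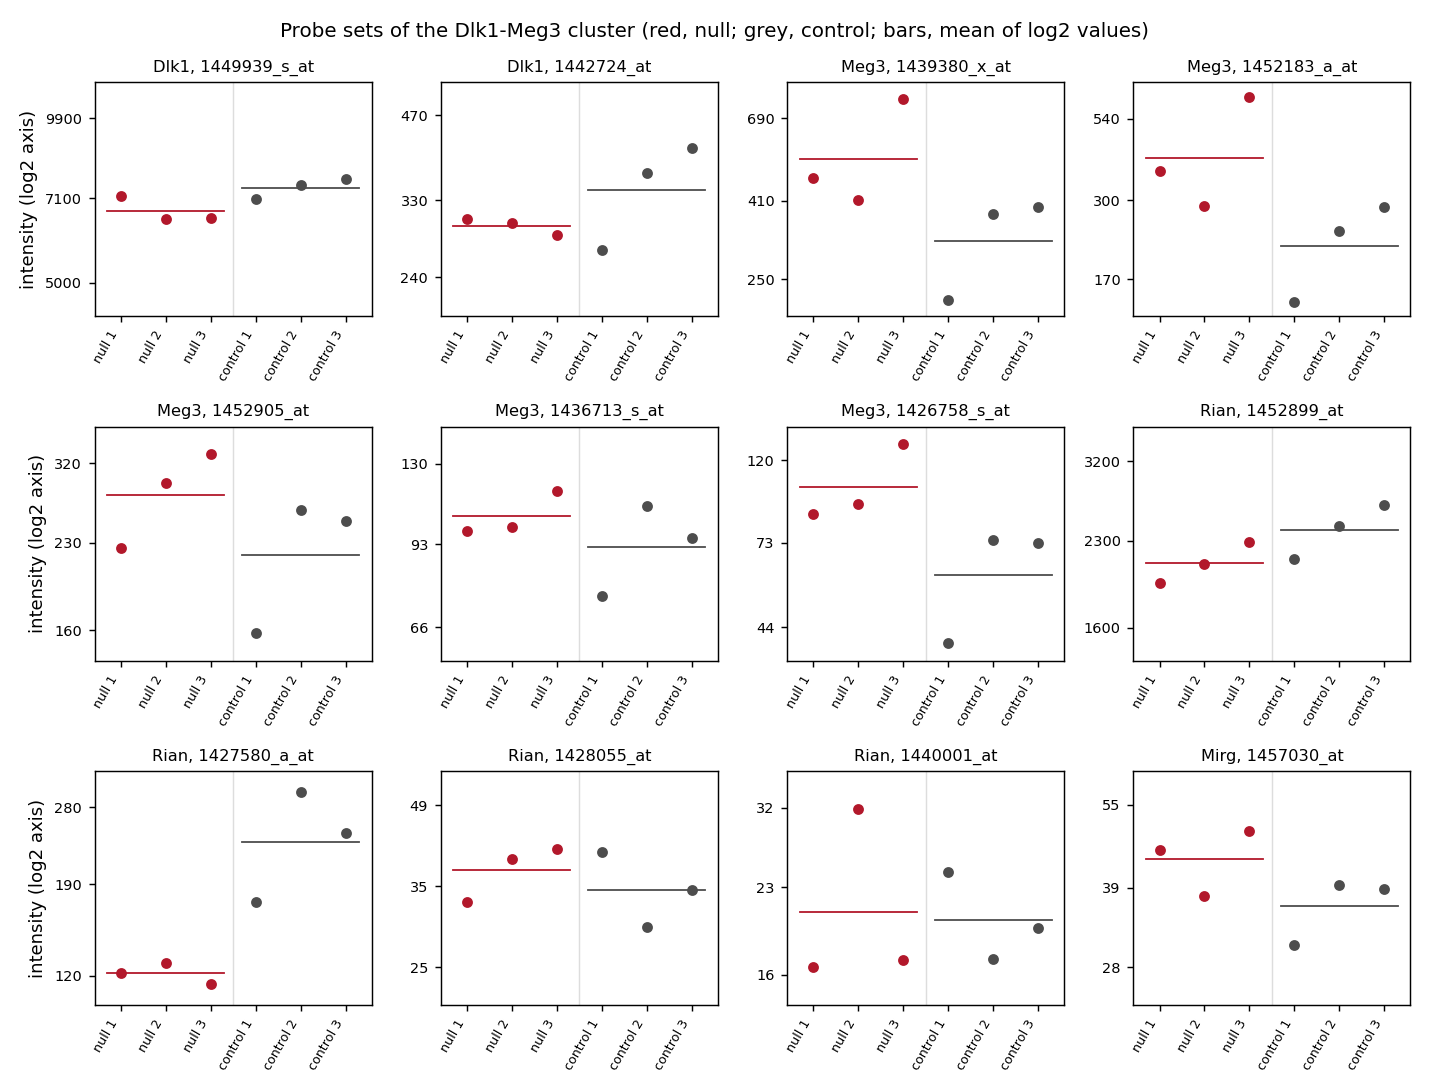
Intensities on a log2 axis of the 12 tested probe sets of Dlk1, Meg3, Rian and Mirg in each array, null in red and control in grey, with bars at the mean of the log2 values of each group. Control replicate 1 is the lowest array on every Meg3 probe set, and the null and control points are apart on 3 of the 5 Meg3 probe sets. They are also apart on the Rian probe set at 115 to 128 in the nulls and 174 to 302 in the controls. Groups were apart on 12.8% of all probe sets tested.

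Peg3 and Usp29 start head to head. Their RefSeq starts on chromosome 7 are 164 bases apart on opposite strands, their promoter windows share 263 bases, and the cyclic AMP response element printed above begins 178 bases before the Peg3 start and lies just inside the Usp29 transcript. Peg3, a zinc finger protein expressed from the paternal allele, had 6837 ± 328 in nulls and 7203 ± 326 in controls (SD, n = 3 each), a log2 difference of -0.08. A second Peg3 probe set, named after its values were seen, read 2440, 2780 and 2400 in the nulls and 3460, 3010 and 3170 in the controls. The groups were apart at a log2 difference of -0.34 ± 0.08 (standard error, n = 3 per group, limma adjusted p = 0.773), whereas another was at -0.07 with overlapping groups. Usp29, a deubiquitinase-like gene, was dim at 25.6 to 47.5 in the nulls and 33.9 to 41.3 in the controls, with null replicate 2 alone above the controls. Zim1, a zinc finger gene of the same cluster expressed from the maternal allele, was close to background at 16.4 to 20.9 in the nulls and 12.6 to 17.9 in the controls.

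Peg10 had the largest difference below 0. It is a gene derived from a retrotransposon, needed in the placenta and expressed from the paternal allele. Intensities were 407, 528 and 396 in null replicates 1, 2 and 3 and 831, 496 and 755 in control replicates 1, 2 and 3. Control replicates 1 and 3 stood above all nulls, and control replicate 2 lay among them. The log2 difference was -0.62 (95% confidence interval -1.11 to -0.14, standard error 0.21, limma adjusted p = 0.773), a level 1.54-fold lower in the null, and with single arrays left out it ran from -0.85, without control replicate 2, to -0.48, without control replicate 1.

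Sgce, which encodes epsilon-sarcoglycan, is the next gene to Peg10 in the RefSeq order and is paternally expressed too. Its values were 456, 355 and 268 in the nulls and 312, 364 and 428 in the controls, overlapping, at a log2 difference of -0.05. The order of arrays therefore differed from that of Peg10, with null replicate 1 the highest for Sgce. Ppp1r9a, an actin-binding neurabin, had a log2 difference of -0.12 with control values of 481 to 495, closer together than the null values of 375 to 504.

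Asb4, an ankyrin-repeat protein of the vascular lineage and the placenta, read 1540, 1560 and 1690 in the nulls and 1620, 894 and 2220 in the controls. The nulls were close together and the controls spread on both sides of them, with control replicate 2 the lowest array. A second Asb4 probe set had the same lowest and highest arrays, at 316 in control replicate 2 and 952 in control replicate 3. Endothelial markers, tested at 9 of 9, were also lowest in control replicate 2, as were the erythroid markers. The endothelial median log2 deviation from the mean of the 6 arrays was -0.51, 0.25 and 0.43 in null replicates 1, 2 and 3, and 0.35, -1.11 and 0.32 in control replicates 1, 2 and 3. Summed endothelial intensity was 1788 to 3494 in nulls and 1278 to 3456 in controls. The erythroid median deviation was -0.25, 0.44 and 0.55 in null replicates 1, 2 and 3, and 0.65, -1.10 and -0.03 in control replicates 1, 2 and 3. The part of either list in the Asb4 value was not tested. For Asb4 the log2 difference was 0.11 with all arrays and -0.25 without control replicate 2.

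**Figure D3:**
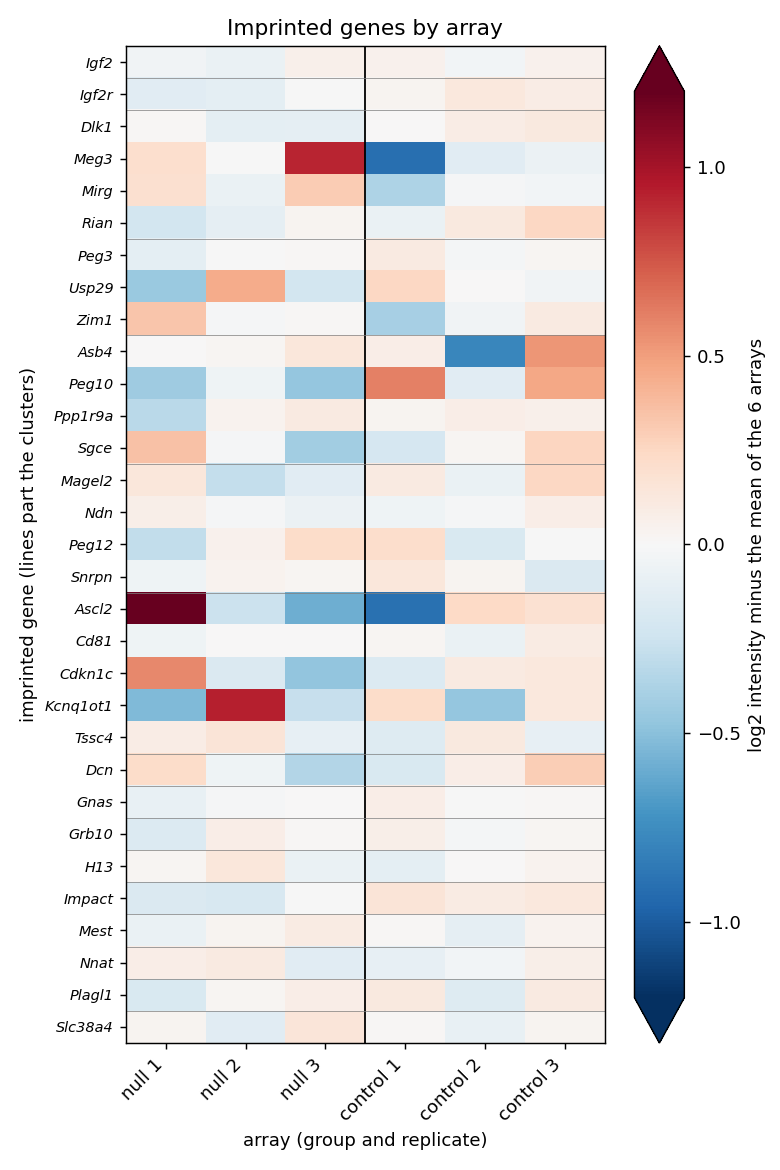
Deviation of log2 intensity from each gene's own mean over the 6 arrays for the 31 imprinted genes tested, null arrays left of the line and controls right of it, with clusters parted by thin lines. Most rows are pale. Strong colours above a gene's mean include Ascl2 in null replicate 1, Kcnq1ot1 in null replicate 2 and Meg3 in null replicate 3. Those below it include Ascl2 and Meg3 in control replicate 1 and Asb4 in control replicate 2.

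In the Kcnq1ot1 cluster, Ascl2, Kcnq1ot1 and Cdkn1c spread widely over the 6 arrays, with log2 ranges of 2.21, 1.46 and 1.06, whereas Cd81 and Tssc4 had ranges of 0.17 and 0.31. The median range was 0.35 over all 31 imprinted genes and 0.49 over all probe sets tested. Ascl2, a basic helix-loop-helix factor of the trophoblast, read 123, 41.5 and 32.9 in the nulls and 26.6, 58.5 and 56.1 in the controls. A single array, null replicate 1, stood above the rest. The log2 difference was 0.31 with an interval of -0.86 to 1.49, and it was -0.26 without null replicate 1.

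Cdkn1c, the cyclin-dependent kinase inhibitor p57, is a maternally expressed brake on proliferation. It read 1640, 970 and 788 in null replicates 1, 2 and 3 and 981, 1180 and 1200 in control replicates 1, 2 and 3. Null replicate 1 was the highest and null replicate 3 the lowest of all 6 arrays, so the groups overlapped fully. Null minus control was -0.05 in log2 (95% confidence interval -0.62 to 0.52). Fetal Leydig cell markers had median log2 deviations of 1.26, -0.65 and -1.40 in null replicates 1, 2 and 3, and of -0.75, 0.76 and 0.78 in control replicates 1, 2 and 3. Their highest and lowest arrays were those of Cdkn1c and also of Sgce, and their part in the values of either gene was not tested.

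Kcnq1ot1 is the paternal noncoding RNA that silences its neighbours in cis. Its brightest probe set read 64.6, 178 and 77.1 in the nulls and 109, 67.9 and 102 in the controls, with only null replicate 2 outside the control range upward. A second Kcnq1ot1 probe set, singled out after its values were seen, gave 44.1, 68.3 and 72.4 in the nulls and 26.8, 37.6 and 38.9 in the controls. All nulls lay above all controls there, at a log2 difference of 0.83 ± 0.24 (standard error, n = 3 per group, limma adjusted p = 0.773), whereas the brightest probe set had 0.08 and the other tested one 0.28, both with overlapping groups. The strand each probe set reads, relative to Kcnq1, within which this RNA lies, was not analysed here.

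Cd81, a tetraspanin, and Tssc4 complete the tested genes of the cluster, at log2 differences of -0.03 and 0.09. Phlda2, a placental growth restrainer, Kcnq1, a potassium channel subunit, and Slc22a18, a transporter, lay below the filter at intensities of 8.53 to 15.5 in the nulls and 8.38 to 16.1 in the controls. Kcnq1 was at 11.1 to 15.3 in the nulls and 15.6 to 16.1 in the controls, without overlap. Both groups were close to the array medians, so no fold is given.

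**Figure D4:**
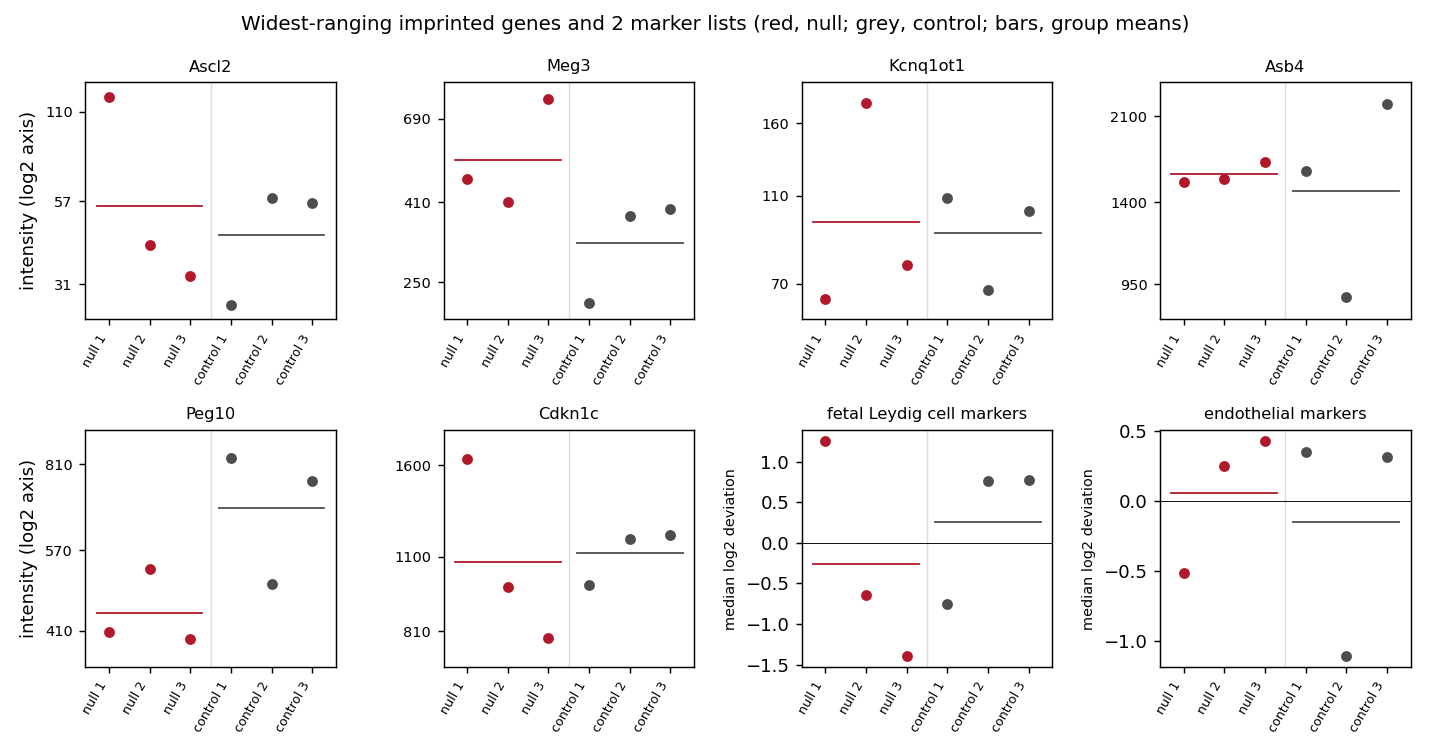
Intensities on a log2 axis of the 6 imprinted genes with the widest range over the arrays, and the median log2 deviation of fetal Leydig and endothelial markers, in each null (red) and control (grey) array, with bars at group means of the log2 values. Ascl2 and Cdkn1c are highest in null replicate 1, as are the Leydig markers at 1.26, and Asb4 is lowest in control replicate 2, as are the endothelial markers at -1.11.

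The Prader-Willi homologous cluster, all paternally expressed, had no call and overlapping groups for each of its 4 genes. Ndn, which encodes the MAGE family protein necdin, had 3880 ± 193 in nulls and 3900 ± 187 in controls (SD, n = 3 each), and the 95% interval of its log2 difference was -0.15 to 0.13. The probe set used for Ndn is of the x type, which can bind related transcripts. The other 4 tested Ndn probe sets were at log2 differences of -0.07 to 0.00. Magel2, another MAGE family gene, was near background at 15.6 to 20.9 in the nulls and 17.9 to 22.5 in the controls, at a log2 difference of -0.18 (95% confidence interval -0.60 to 0.23). Peg12, an inhibitor of GSK3 related to Frat1, was at -0.01 (95% confidence interval -0.39 to 0.36). Snrpn, a spliceosome protein, was read from a dim probe set at 31.4 to 33.6 in the nulls and 28.9 to 35.9 in the controls, because 6 probe sets that the annotation pairs with Snurf were not used here.

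The remaining genes stand outside these clusters. Impact, a regulator of the kinase GCN2 and of translation, had groups that did not overlap. It read 972, 957 and 1090 in the nulls and 1220, 1170 and 1200 in the controls, the nulls all lower. Null minus control was -0.25 in log2, standard error 0.09 (95% confidence interval -0.46 to -0.05, limma adjusted p = 0.773), a level 1.19-fold lower in the null, and a dim second probe set was at -0.21 with overlapping groups. Gnas, the stimulatory G protein alpha subunit, Nnat, the proteolipid neuronatin, and H13, a signal peptide peptidase, were at -0.06, 0.04 and 0.05. Dimmer tested H13 probe sets were at 0.41, 0.17 and 0.01, each with overlapping groups. Rasgrf1, a Ras exchange factor, was at 4.62 to 4.85 in the nulls and 4.63 to 4.88 in the controls, below the filter.

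A further 36 imprinted genes listed beside these gave no call either. Of the 24 tested, 0 passed the limma adjusted test in either direction, and 3 (12.5%) were at an unadjusted p under 0.05, against 6.04% of all probe sets. Their median log2 difference was -0.02. Gatm, an enzyme of creatine synthesis, read 174, 124 and 161 in the nulls and 260, 279 and 246 in the controls. The groups were apart by a wide margin, at a log2 difference of -0.79 ± 0.16 (standard error, n = 3 per group, limma adjusted p = 0.773). Tspan32, a tetraspanin of blood cells in the Kcnq1ot1 region, read 108, 87.7 and 101 in the nulls and 66.7, 66.3 and 70.2 in the controls, at 0.54 ± 0.14 (standard error, n = 3 per group). The 4 erythroid markers tested had log2 differences of 0.09 to 0.99, with a median of 0.31 and 0 called, and the 7 macrophage markers had -0.54 to -0.14. Their part in the Tspan32 value was not tested. Sfmbt2, a polycomb-associated gene, was at -0.54.

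Genes that set or keep imprints were likewise not called, 0 of 17 tested, where 0.0272% of all probe sets were called. At an unadjusted p under 0.05 there was 1, or 5.88%, close to the 6.04% of all probe sets. They had a median log2 difference of -0.07. Tet1, which oxidises methylcytosine during erasure in germ cells, read 453, 503 and 375 in the nulls and 618, 541 and 547 in the controls. Its groups were apart, at a log2 difference of -0.37 ± 0.14 (standard error, n = 3 per group, limma adjusted p = 0.773). Dnmt3a, a de novo methyltransferase, and Hells, a chromatin remodeller, were at -0.15 and -0.12. Germ cell markers had a median log2 difference of -0.13 over the 8 tested, and their part in these values was not tested.

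The IGF and insulin signalling genes around Igf2, Igf2r and Grb10 had 0 of 18 called and 0 at an unadjusted p under 0.05 by limma, with a median log2 difference of -0.02. Igfbp5, an IGF-binding protein, read 5690, 5900 and 6130 in the nulls and 6410, 6170 and 6480 in the controls, with nulls all lower at -0.11 ± 0.05 (standard error, n = 3 per group). Irs2, an insulin receptor substrate, was at 0.27 and Igf1 at -0.46. Igf1 was highest in control replicate 3 at 1230 and null replicate 1 at 1070, and lowest in null replicate 2 at 582.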

How the data were processed

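Testes of E13.5 embryos were profiled on 6 arrays, 1 sample each. The authors deposited linear intensities made with GCRMA, per the submitters' processing notes. GCRMA corrects background and normalizes between arrays, so dim values depend on it. The table held 45101 probe sets, of which GEO's platform annotation gives 34958 a single gene symbol. Values were taken to log2 with no constant added, and probe sets with a mean of at least 4 were kept, 22082 in all. The model, run in limma 3.58.1 under R 4.3.3, covered all of them (group as the only term, eBayes with trend, two-sided, Benjamini-Hochberg over all kept probe sets, calls at an adjusted p under 0.05), and the script was tested on simulated data. Differences are null minus control. Each gene has its brightest probe set with 1 symbol. Array values are given for imprinted genes with an unadjusted p under 0.05, differing by 0.5 or more in log2 either way, or among the 6 widest ranges; the 3 genes of smallest p are named from each further list. Others were added for their place in a cluster. The genes and lists were chosen with earlier results of these data known. The allele named for each gene is general knowledge and not measured. Promoter sequences and gene order are from RefSeq (GRCm38.p6). The alternatives were no filter, a filter at 6, quantile normalization, median centring, 16 added, other eBayes settings, the replicate block, single arrays left out and the mean over probe sets.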

Additional observations from a re-analysis of the deposited data

How the results depend on the processing

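No imprinted gene was called under any of the alternatives, a count of 0 in each, and the lowest limma adjusted p of one was 0.581. The number of all probe sets called was 6, and 4 to 7 under quantile normalization, robust eBayes, median centring, 16 added to each value, or a changed filter (none, or 6), against 1 by eBayes without trend and 0 to 4 with single arrays left out (0 without control replicate 3). With the replicate block it was 0. Same-numbered arrays correlated at -0.59, -0.34 and 0.14 in their deviations from group means, so the numbers were not taken to pair the samples. Arrays of unlike number correlated at -0.40 to 0.58. The highest were null replicate 1 with control replicate 2 at 0.58 and null replicate 2 with control replicate 1 at 0.46. The median difference of the imprinted genes, -0.04, was 0.011 with the mean over probe sets and -0.074 to 0.0078 with single arrays left out, highest without null replicate 1. Of 273 values of single genes under other settings 6 were opposite in sign. With median centring Snrpn was at -0.0028. With the mean over probe sets Grb10 was at 0.013, Plagl1 at 0.013, Gnas at 0.077, Sgce at 0.037 and Ppp1r9a at 0.027. That mean took in every probe set with 1 symbol of a gene, also those below the filter. All further probe sets of Gnas, Grb10 and Sgce were below it, whereas those of Plagl1 were above it. With single arrays left out, 18 genes took both signs. The ranges of their log2 differences were Asb4 -0.25 to 0.41, Ascl2 -0.26 to 0.69, Cd81 -0.074 to 0.013, Cdkn1c -0.35 to 0.18, Dcn -0.26 to 0.022 and Grb10 -0.10 to 0.021. They were H13 -0.0088 to 0.10, Kcnq1ot1 -0.37 to 0.36, Mest -0.012 to 0.084, Ndn -0.046 to 0.031, Nnat -0.0066 to 0.11 and Peg12 -0.13 to 0.13. The remaining ones were Plagl1 -0.14 to 0.026, Ppp1r9a -0.20 to 0.013, Sgce -0.24 to 0.14, Slc38a4 -0.040 to 0.10, Snrpn -0.083 to 0.073 and Usp29 -0.40 to 0.042. The 4 dim genes, fitted without the filter, had adjusted p of 0.878 to 0.998.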
